A study of Mus musculus with 2 samples.

Results

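The 5 stretches of the mouse genome at which the 5mC-labelled library dominates or is very dense, described here at 50 bp resolution, are set against the 20 kb on either side of each. They are chr17:13743001-13747000, chr10:7229001-7238000, chr7:71615001-71622000, chr12:4219001-4222000 and chr9:100999001-101001000 (mm9, 1-based), 25 kb in all, or 500 of the 51579565 windows of 50 bp on chromosomes 1 to 19 and X. The first pair was chosen from the densest regions of the 5mC-labelled library, and the other 3 for a high ratio of that library over the H2ABbd-labelled library, both counted without repeated reads. Levels, folds and ratios at these loci therefore describe the choice and carry no test. The repeats of reads at 1 position, the strand and the placement of reads were not used in choosing them, though density, which was, bears on repeats and on shared positions.

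Both libraries came from mouse embryonic stem (ES) cells, pluripotent cells of the early embryo, grown with the cytokine LIF and without a feeder layer. For the 5mC-labelled library (MeDIP-seq) genomic DNA was sonicated to 100 to 400 bp, ligated to adaptors, denatured and precipitated with a mouse monoclonal antibody against 5-methylcytosine, then amplified for 15 PCR cycles. For the H2ABbd-labelled library (ChIP-seq) formaldehyde-fixed chromatin of 200 to 400 bp was precipitated with a rabbit antibody made by the submitters and amplified for 20 cycles. Each group is a single library, so differences between the 2 have no replicate check, and intervals cover counting error only. No input library was used here. File names and sample labels disagree on which library is which antibody. The labels are followed, so each direction between the libraries rests on them; the libraries are called 5mC-labelled and H2ABbd-labelled.

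5-methylcytosine is the main DNA modification of mammals. It lies mostly at CpG dinucleotides and is abundant in transposons and other repeated sequence, and MeDIP reports the density of methylated cytosines along a fragment rather than a level per site. H2ABbd (H2A.Bbd) is a short H2A variant without the usual acidic patch and C-terminal tail, and nucleosomes that hold it are known to wrap DNA loosely. Where a sequence is present in more copies in the cells than in the reference, reads of all copies can be placed on the copy that the reference holds. No mm9 sequence or annotation was used here, so the loci are named by position, with no gene or sequence.

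The 5mC-labelled library held 8056333 distinct positions (a chromosome, 5′ end and strand, each counted once) from 9266471 reads, and the H2ABbd-labelled library held 1397289 from 3503839. Of the reads, 13.1% repeated a position already seen in the 5mC-labelled library and 60.1% in the H2ABbd-labelled library. On chromosomes 1 to 19 and X 52.8% of distinct positions of the 5mC-labelled library and 54.6% of those of the H2ABbd-labelled library lay on the plus strand. The read names give 1 and the same run, flow cell and lane for both libraries.

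The 5 loci fell into different kinds. At the loci of chromosomes 17 and 10 both libraries were dense. The chromosome 17 locus had 2740 distinct positions in the 5mC-labelled library, 188 times the density of that chromosome (exact Poisson 95% interval 181 to 195), and 317 in the H2ABbd-labelled library, 119 times (106 to 132). The chromosome 10 locus had 4083 (146 times, 141 to 150.1) in the 5mC-labelled library and 125 (26.3 times, 21.9 to 31.3) in the H2ABbd-labelled library. At the other 3 the H2ABbd-labelled library had no read at all.

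The loci of chromosomes 7, 12 and 9 had 148, 127 and 107 distinct positions in the 5mC-labelled library, at 6.63, 13.7 and 14.3 times their chromosome's density, and 0 in the H2ABbd-labelled library. For a count of 0 a floor of 3 positions per locus was set, which is below the exact 95% upper bound. At the mean density of the chromosome these short loci would hold 3.87, 1.98 and 1.69 positions of that library. A level of the H2ABbd-labelled library below the chromosome mean was thus not detectable at the loci of chromosomes 12 and 9 at this depth. Around the chromosome 12 locus the library was denser, with 61 positions in 40 kb of flanks. At that density the locus would hold 4.58, and the exact 95% upper bound of locus over flank density was 0.831. The count of 0 entered the choice of this locus, so the bound describes the choice and carries no test.

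Of the 500 windows, 432 were raised in the 5mC-labelled library, where 1.71% of all windows were, and 187 in the H2ABbd-labelled library, where 0.598% were. Raised means that the 500 bp around the window hold at least 4 times the chromosome mean and at least 5 distinct positions. Windows that held a distinct position numbered 373 in the 5mC-labelled library, against 13.5% of all windows, and 124 in the H2ABbd-labelled library, against 2.28%. All 187 raised windows of the second lay at the loci of chromosomes 17 (61 of 80 windows) and 10 (126 of 180). In 1 kb bins, every bin of the 5 loci was called enriched in the 5mC-labelled library, against 0.508% of all bins. In the H2ABbd-labelled library 4 of 4 bins at chromosome 17 and 8 of 9 at chromosome 10 were called, against 1.18% of all bins. These calls follow from the choice of loci.

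The name given to these loci, dominated by the 5mC-labelled library, held unevenly. Per distinct position of each library, the chromosome 17 locus was only 1.50 times higher in the 5mC-labelled library than in the H2ABbd-labelled library (exact 95% interval 1.33 to 1.69), and the chromosome 10 locus 5.67 times higher (4.74 to 6.82). Per read the ratios were 11.8 (10.6 to 13.1) and 14.7 (12.4 to 17.5). At chromosome 17 the size of the difference thus depended on whether repeats were kept, in the counts and in the library totals. Against a floor of 3 counts over each locus, the loci of chromosomes 7, 12 and 9 were 8.56-fold, 7.34-fold and 6.19-fold higher per distinct position. Counting error of the 5mC-labelled library alone lowered these to 7.23, 6.12 and 5.07 at the 95% limit. Part of every rise from distinct positions to reads comes from the library totals. At chromosome 7 the counts were 148 and 0 either way, yet the ratio against the floor was 18.7 per read.

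**Figure D1:**
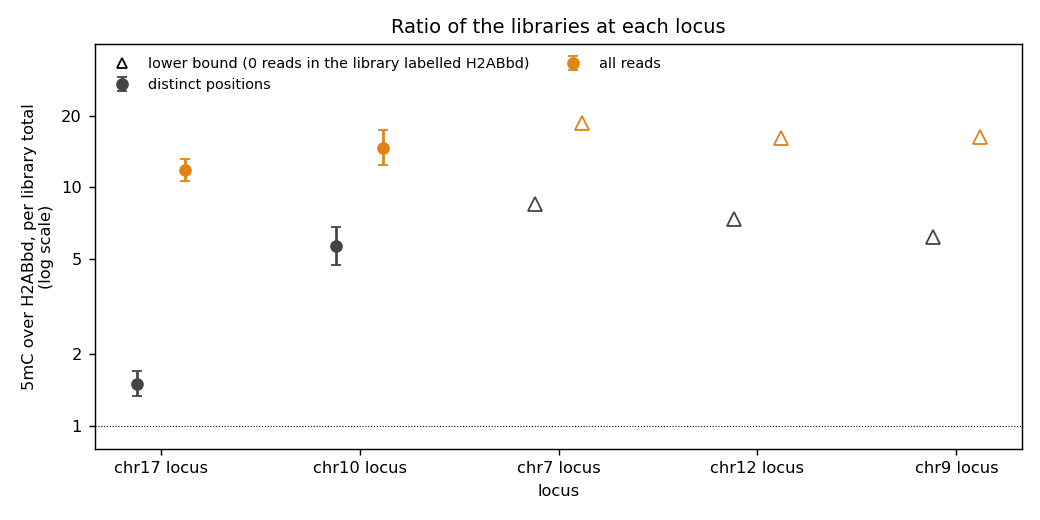
Ratio of the 5mC-labelled library over the H2ABbd-labelled library at each locus (log scale), each count divided by its library's total, by distinct positions (grey) and by all reads (orange). Bars are exact 95% intervals. Open triangles, marked as lower bounds, are ratios against a floor of 3 counts where the H2ABbd-labelled library had 0 reads, without counting error. The chromosome 17 locus stands at 1.50 by distinct positions and at 11.8 by reads.

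The profile of 50 bp windows rose within a few windows at the start of the loci of chromosomes 17, 10, 12 and 9, and it did not at the chromosome 7 locus. Edges were placed at single bases where the read bodies of 42 bp covered the genome at 25% of the mean of the locus or more (at least 2 reads), with gaps of up to 100 bp bridged. This measure was chosen after the profiles were seen.

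**Figure D2:**
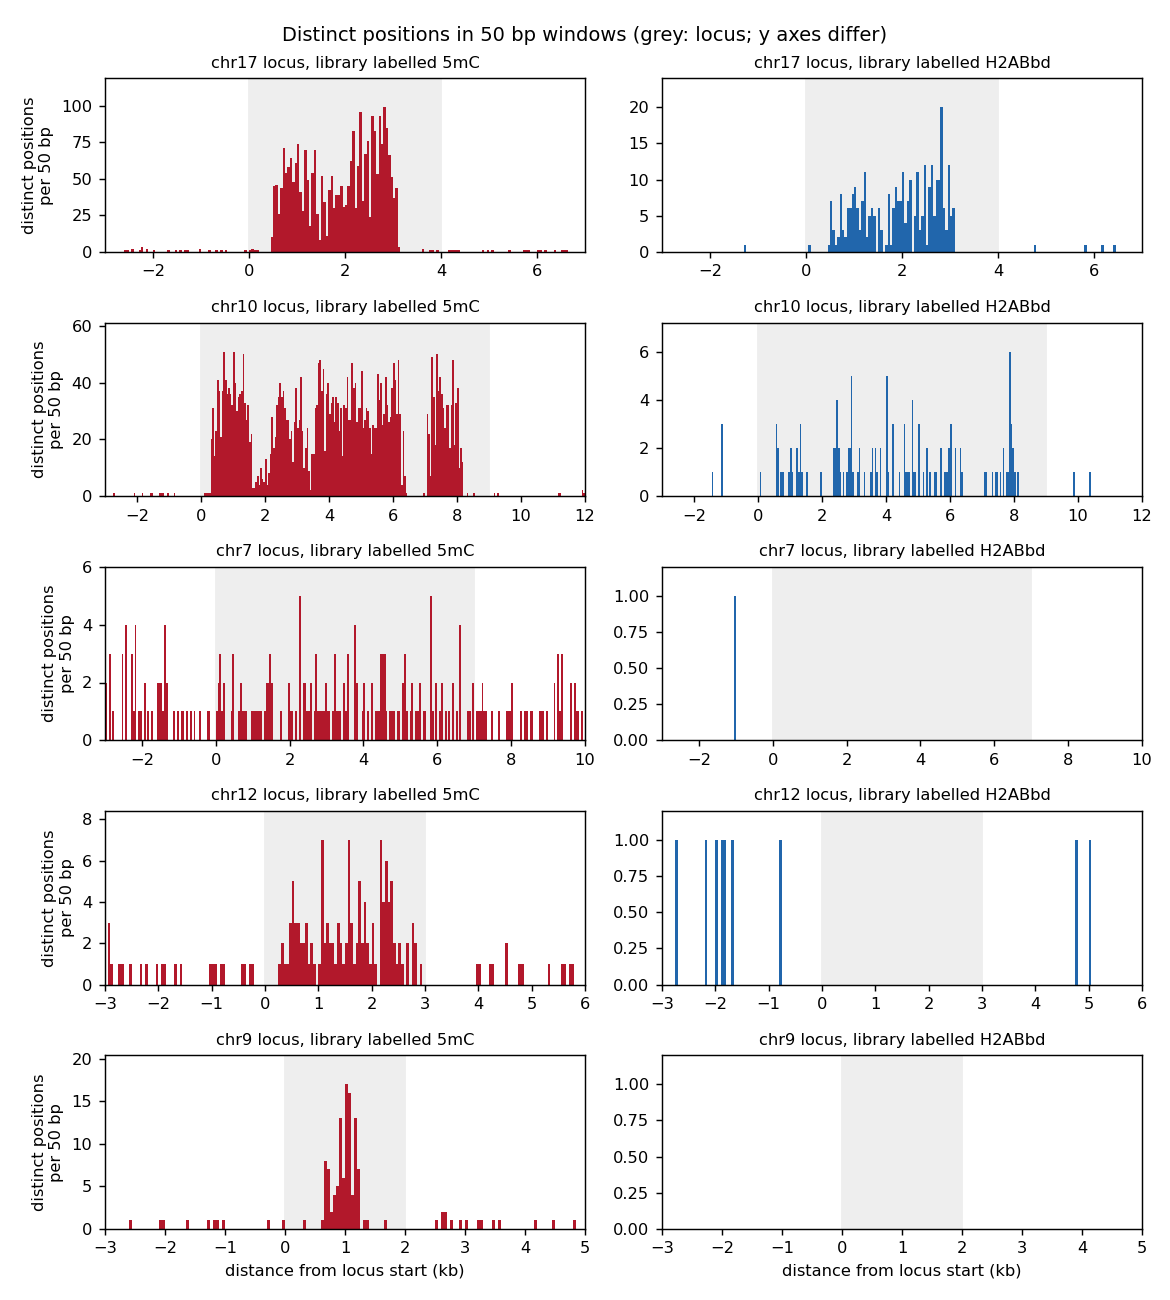
Distinct positions per 50 bp window (y) by distance from the start of each locus in kb (x), for the 5mC-labelled library (left) and the H2ABbd-labelled library (right), with read starts moved 100 bp towards the fragment centre and the locus in grey. The densest windows held 99, 51, 5, 7 and 17 positions in the 5mC-labelled library (top to bottom), and the right panels of the chromosome 7, 12 and 9 loci are empty inside the grey.

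At chromosome 17 a single block of 2496 bp, chr17:13743546-13746041, held 2714 of the 2740 distinct positions of the 5mC-labelled library and 316 of the 317 of the H2ABbd-labelled library. In the 5mC-labelled library the 100 bp just inside its start held 132 read centres and the 100 bp just outside held 1. At its end the numbers were 127 inside and 2 outside. In the H2ABbd-labelled library the same edges had 14 inside and 0 outside at the start, and 10 inside and 0 outside at the end. The edges found in one library thus also bounded the other.

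Within the block the density was uneven in the same places in both libraries. The densest 50 bp window was the same one in both, chr17:13745801-13745850, with 99 distinct positions in the 5mC-labelled library and 20 in the H2ABbd-labelled library. Across the 62 windows of the raised stretch the counts of the libraries correlated at Pearson r = 0.786 (Spearman rho = 0.788). This describes windows of 1 locus that share which reads can be placed there, and windows are not replicates. The positions with the most reads in the 5mC-labelled library lay close together on opposite strands, at 13745049 on the plus strand with 35 reads and at 13745087 on the minus strand with 38. The top plus-strand position of the H2ABbd-labelled library was the neighbouring base, 13745048, with 4 reads.

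At chromosome 10 the 5mC-labelled library formed 5 blocks, together 6515 bp. They were chr10:7229381-7230674, chr10:7230844-7231714, chr10:7231846-7232409, chr10:7232516-7235302 and chr10:7236119-7237117. They held 872, 397, 284, 1814 and 662 distinct positions in the 5mC-labelled library, and 19, 13, 15, 53 and 23 in the H2ABbd-labelled library. Per kb the 5mC-labelled library was similar in the first, the fourth and the fifth block (674, 651 and 663 positions) and lower in the second and the third (456 and 504). At the outer edges of the locus the 100 bp inside held 82 and 54 read centres of the 5mC-labelled library, and the 100 bp outside held 2 and 0.

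The libraries followed each other less closely here than at chromosome 17. Across 167 windows r was 0.416 (rho = 0.440), with only 124 positions of the H2ABbd-labelled library over them. The densest windows of the 5mC-labelled library were chr10:7229701-7229750 and chr10:7230001-7230050, tied at 51 positions. The densest window of the H2ABbd-labelled library was chr10:7236851-7236900, in the last block, with 6 positions, all on the minus strand.

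Both of these loci stood next to long stretches without reads of either library. A stretch of 50128 bp began 9128 bp beyond the end of the chromosome 17 locus (chr17:13756129-13806256), and one of 50159 bp began 8526 bp beyond the chromosome 10 locus (chr10:7246527-7296685). Of all 1 kb bins with a read, 0.228% lay within 20 kb of a read-free stretch of 40 kb or more. There were 145 such stretches on chromosomes 1 to 19 and X, of which 87 were between 50 and 51 kb long. This was looked for after the profiles were seen.

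The read-free stretches take up 10872 bp and 11474 bp of the flanks and lower them. The chromosome 17 locus lay 143 times (124 to 167) above its flanks in the 5mC-labelled library and 132 times (87.2 to 209) in the H2ABbd-labelled library. The chromosome 10 locus lay 193 times (157 to 239) and 61.7 times (31.5 to 138) above its flanks. With flank stretches of 1 kb or more without reads left out, the folds of the 5mC-labelled library were 104 and 116. The 20 kb before the locus, on the far side from these stretches, had 6.90 positions per kb at chromosome 17 and 3.10 at chromosome 10 in the 5mC-labelled library, beside chromosome means of 3.64 and 3.12.

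The chromosome 9 locus was the narrowest. A block of 576 bp, chr9:100999710-101000285, held 102 of its 107 distinct positions in the 5mC-labelled library, 177 per kb. The flanks held 3.13 per kb, and the locus as a whole lay 17.1 times above them (13.1 to 22.3). The 4 densest of its 40 windows held 55.1% of the positions. Its 100 bp inside the start held 16 read centres and the 100 bp outside 1, while at the end they held 3 and 1.

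The chromosome 12 locus was a plateau. The raised stretch ran over 2700 bp, chr12:4219251-4221950, at 47.0 positions per kb in the 5mC-labelled library, and held all 127 positions of the locus. Read coverage above the edge level formed blocks of 1621 bp and 655 bp. The first started with 9 read centres in its first 100 bp against 0 in the 100 bp before. The second ended with 3 in its last 100 bp against 1 in the 100 bp after. Among the windows of the locus the variance was 1.57 times the mean, with a densest window of 7 positions and 29.1% of positions in the 6 densest of 60 windows. The locus lay 7.43 times above its flanks (5.93 to 9.27).

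The chromosome 7 locus was no separate peak. It held 21.1 positions per kb in the 5mC-labelled library, and its flanks held 13.5 per kb, a fold of only 1.56 (1.29 to 1.88). The flank after the locus had 18.4 per kb and the flank before it 8.65. In 1 kb bins the raised level ran from 5 kb before to 26 kb after the start of the locus, bounds chosen from the profile. Over these 31 bins the 5mC-labelled library had 8 to 26 positions per bin with a median of 20.0. The 55 bins before them had a median of 4.0 (0 to 13) and the 34 after them also 4.0 (0 to 12).

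The locus itself is thus a 7 kb piece of a stretch of about 31 kb in which the density changed abruptly at both ends. At 4 times the chromosome mean the raised stretch around it measured 11850 bp, from 4450 bp before the locus to 400 bp after it. It held 236 positions of the 5mC-labelled library and 1 of the H2ABbd-labelled library. Over the 31 kb the H2ABbd-labelled library had 3 positions, 0.0968 per kb, against 17 (0.309 per kb) in the 55 kb before and 23 (0.676 per kb) in the 34 kb after.

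**Figure D3:**
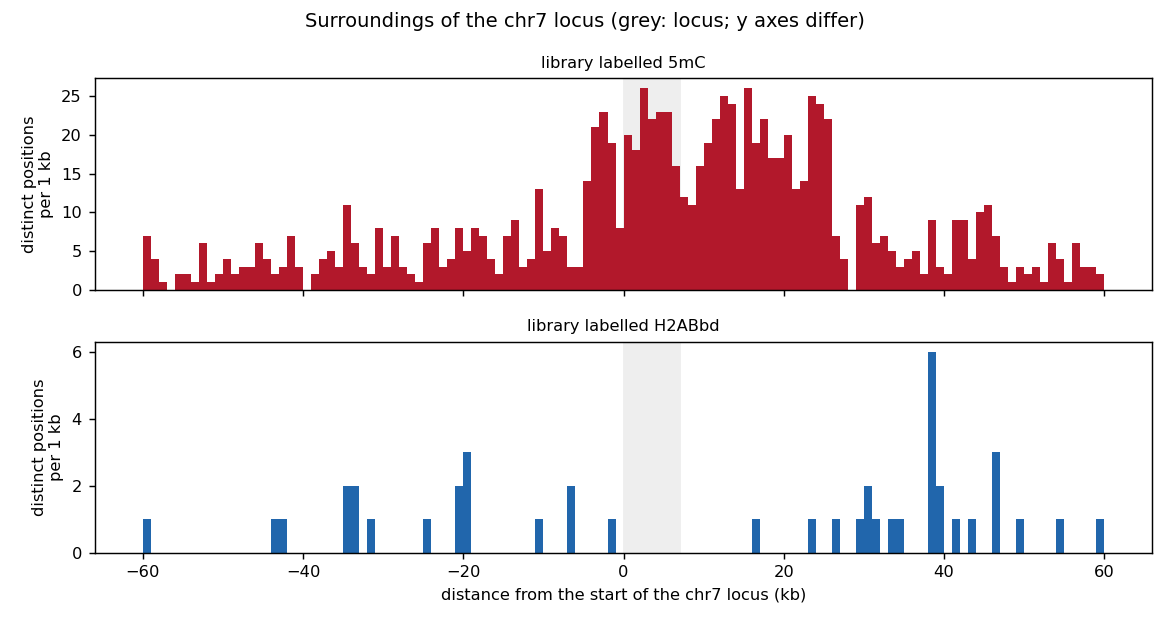
Distinct positions per 1 kb (y) from 60 kb before to 60 kb after the start of the chromosome 7 locus (x, kb), for the 5mC-labelled library (top) and the H2ABbd-labelled library (bottom), with the locus in grey. The upper panel steps up to a median of 20.0 per bin between -5 and 26 kb, where the lower panel holds 3 positions.

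Gaps of this length in the H2ABbd-labelled library, which holds fewer distinct positions, were found elsewhere. The nearest positions of that library enclosed read-free stretches of 17502 bp at chromosome 7, 5572 bp at chromosome 12 and 19923 bp at chromosome 9. Of all 1 kb bins with a read of the 5mC-labelled library, 9.66%, 49% and 6.97% lay in a stretch at least that long without reads of the H2ABbd-labelled library. At chromosome 9 the nearest position lay 11453 bp before the locus and 6472 bp after it.

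The number of reads at each position was highest at the chromosome 17 locus among the 5 in the 5mC-labelled library. In the 5mC-labelled library 76.5% of its reads repeated a position (exact Clopper-Pearson 95% interval 75.7 to 77.3%), against 15.2% in the H2ABbd-labelled library (11.8 to 19.3%). In the whole libraries the shares were 13.1% and 60.1%. Density, for which the locus was chosen, fixes part of this. Within the block the 5mC-labelled library had 2.37 reads for each of 4910 possible positions (a base and a strand), so at least 57.8% of its reads there had to repeat one, and the H2ABbd-labelled library had 0.0760. In the flanks 3.05% (1.13 to 6.51%) of the reads of the 5mC-labelled library repeated a position and 20.0% (7.71 to 38.6%) of those of the H2ABbd-labelled library. In the 5mC-labelled library the locus had 4.26 reads per position, 225 positions had 10 reads or more and the highest had 38. In the H2ABbd-labelled library 271 of 317 positions had 1 read and the highest had 5.

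At the other loci repeats in the 5mC-labelled library were fewer. They made up 24.7% (23.6 to 25.9%) of the reads at chromosome 10, against 10.7% (6.12 to 17.1%) in the H2ABbd-labelled library, with at most 5 reads at a position in either library. At chromosome 9 they made up 17.1% (11.0 to 24.7%), above the 6.02% (2.63 to 11.5%) of its flanks, with intervals that overlap between 11.0 and 11.5%. The chromosome 12 locus had 1 repeated read among 128 and the chromosome 7 locus none among 148, which allows up to 2.46%.

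**Figure D4:**
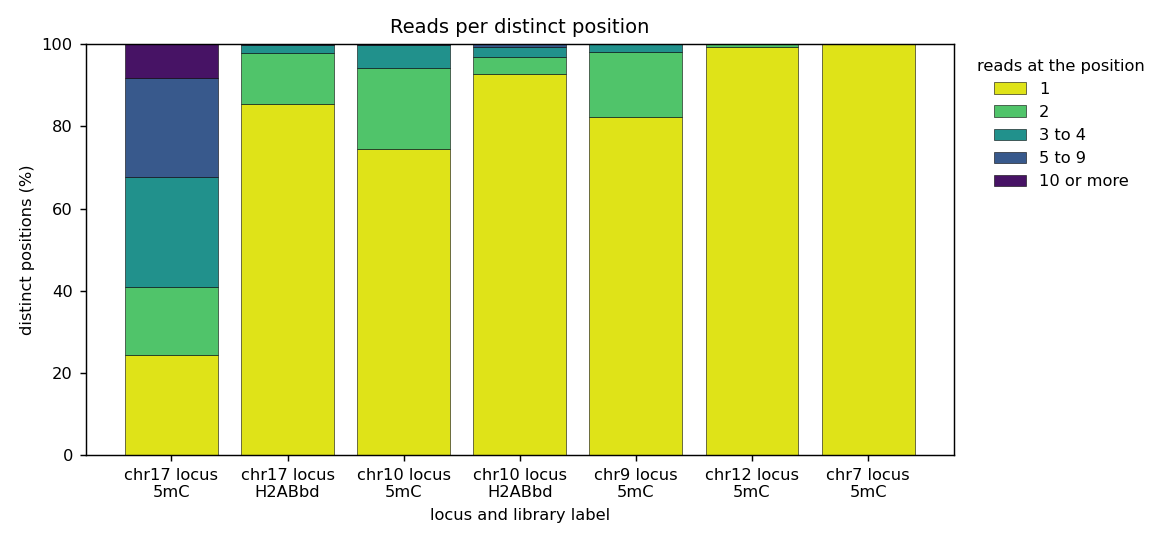
Share of distinct positions (y, %) that held 1, 2, 3 to 4, 5 to 9 or 10 or more reads, by locus and library label (x). At chromosome 17 only 24.5% of positions of the 5mC-labelled library held a single read, against 85.5% in the H2ABbd-labelled library.

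Counted against the places a read can take, many places stayed unused at chromosome 17. The 2496 bp block offers 2455 placements of a 42 bp read, on either strand. The 5mC-labelled library had 2.37 reads per placement and strand, and it used 1571 of the placements and left 884 without a read on either strand. The same placements recurred on both strands: 86.2% of those used on the plus strand were also used on the minus strand, where 56.5% of all placements were used. Of the 317 positions of the H2ABbd-labelled library at the locus 287 (90.5%) were also positions of the 5mC-labelled library, and they make up 10.5% of the positions of the 5mC-labelled library. Within the block the shared share was 90.8%, against 55.1% of possible positions that the 5mC-labelled library used on the same strands, a ratio of 1.65.

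The chromosome 10 blocks offer 6310 placements, of which the 5mC-labelled library used 3238 on one strand or both. Here 38.3% of the plus-strand placements were also used on the minus strand, above the 31.1% of all placements used on that strand. Of the 125 positions of the H2ABbd-labelled library 59 (47.2%) were shared with the 5mC-labelled library, 1.45% of its positions. Within the blocks the share was 48.0%, against 31.3% of possible positions used on the same strands, a ratio of 1.53. The share of positions in use caps each ratio, and the cap was lower at chromosome 17. The ratios thus do not rank the overlap at the loci. Whether copies of the sequence or the handling of reads with several possible places bear on these overlaps was not tested.

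The plus share of every locus in the 5mC-labelled library lay within a few points of 50%. The plus share was 48.9% (47.1 to 50.8%) at chromosome 17, 51.1% (49.5 to 52.6%) at chromosome 10, 48.0% at chromosome 7, 47.2% at chromosome 12 and 44.9% (35.2 to 54.8%) at chromosome 9. Each interval but that of chromosome 17 and that of chromosome 10 also holds the 52.8% of the whole library.

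In the H2ABbd-labelled library the chromosome 10 locus was strongly one-sided. Only 16 of its 125 positions lay on the plus strand and 109 on the minus strand, a plus share of 12.8% (exact Clopper-Pearson 7.50 to 20.0%), while the 5mC-labelled library had 2086 and 1997 there. The tilt ran through all 5 blocks, with 2 plus and 17 minus in the first, 2 and 11 in the second, 1 and 14 in the third, 7 and 46 in the fourth and 2 and 21 in the fifth. At chromosome 17 the plus share of the H2ABbd-labelled library was 57.4% (51.8 to 62.9%), near the 54.6% of its whole.

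Tilted windows were found elsewhere among the dense stretches of the H2ABbd-labelled library. Of its 105 windows of 10 kb with at least 100 distinct positions, 14.3% had a plus share at least 30 points from 50%, and 7.62% had one at least 30 points below 50%. In the 5mC-labelled library 0.597% of 670 such windows were that far from 50%, none of them on the minus side. These counts include the window that holds most of the chromosome 10 locus. Of the other 104 windows of the H2ABbd-labelled library, 4 (3.85%) had a plus share as low as the 12.8% of the locus or lower.

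**Figure D5:**
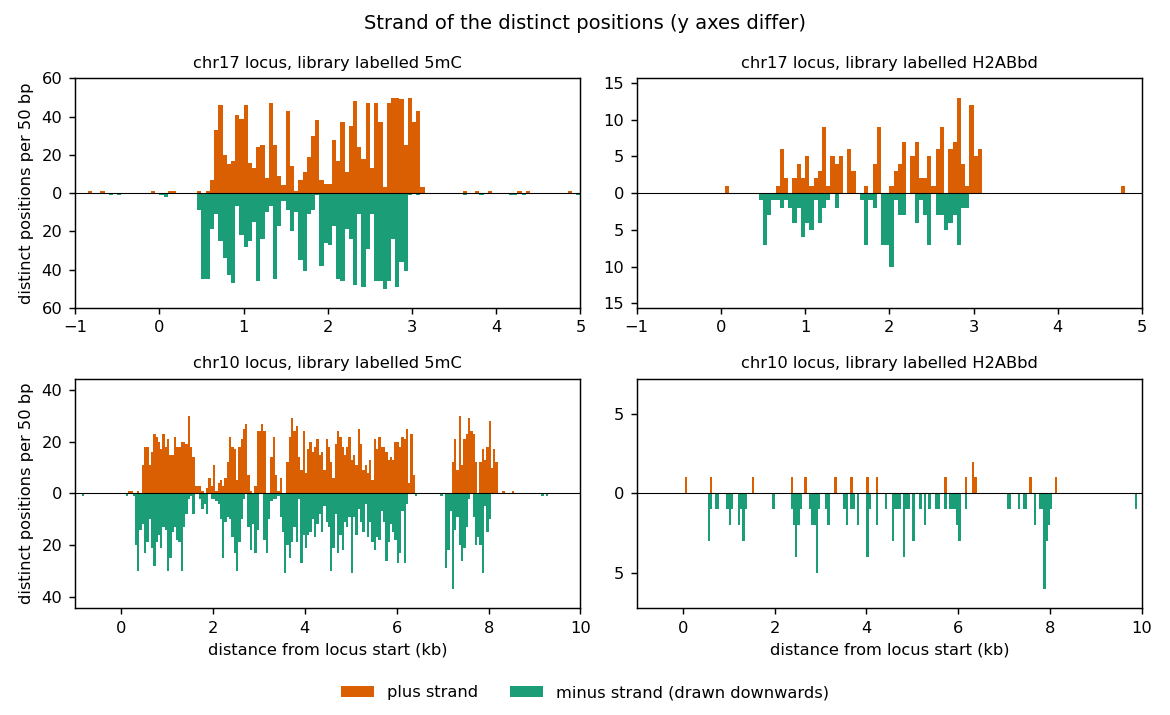
Distinct positions per 50 bp (y) on the plus strand (up, orange) and the minus strand (down, green) by distance from the start of the chromosome 17 locus (top) and the chromosome 10 locus (bottom) in kb (x), for the 5mC-labelled library (left) and the H2ABbd-labelled library (right). At the chromosome 10 locus the 5mC-labelled library has 2086 plus and 1997 minus positions, and the H2ABbd-labelled library 16 and 109.

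The offset between the medians of the strands was given no interval, and differences among the loci were not tested. Fragments read from both ends place minus-strand reads downstream of plus-strand reads, and in the 5mC-labelled library the median minus-strand read lay 118 bp downstream of the median plus-strand read at chromosome 12 and 24 bp downstream at chromosome 9. At chromosomes 17 and 10 it lay upstream, at -57 bp and -40.5 bp. At chromosome 7 it lay at -13 bp, from only 5 plus-strand and 7 minus-strand positions. The chromosome 12 value rests on 57 and 63 positions. Distances from each plus-strand 5′ end to each minus-strand 5′ end downstream were counted in classes from 40 bp upwards, and shorter ones were not. The fullest class was 40 to 49 bp at chromosomes 17, 10 and 9. It holds reads that take the same 42 bp placement on opposite strands. That class held 1.90, 1.61 and 6.97 times the mean of the classes between 300 and 600 bp. The chromosome 9 block is only 576 bp long and leaves few pairs that far apart. Its 6.97 is thus not comparable with the other values. At chromosome 12 the fullest class was 240 to 249 bp, with 26 pairs (2.04 times), a distance within the sonicated lengths. At chromosome 7 it was 70 to 79 bp, with only 12 pairs.

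A pair of other dense stretches shows how far these features are shared. At chr17:39979001-39986000 the ratio of the 5mC-labelled library over the H2ABbd-labelled library was 0.841 per distinct position (0.793 to 0.892) and 2.66 per read. Repeats made up 53.0% of the reads of the 5mC-labelled library and 31.8% of those of the H2ABbd-labelled library, at 1.22 and 0.173 reads per possible position within the block. At chr2:98502001-98508000 the ratio was 0.199 per distinct position and 0.152 per read, and repeats made up 99.0% and 99.7% of the reads. There 95.1% of plus-strand placements of the 5mC-labelled library were also used on the minus strand, beside 78.7% of all placements used on that strand. At chr17:39979001-39986000 the shares were 69.8% and 58.2%. This gap is narrower than that between 86.2% and 56.5% at the chromosome 17 locus. At chr2:98502001-98508000 most placements were in use, which caps the gap there, so it was not compared.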

How the data were processed

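Each deposited file lists the aligned reads of 1 library, 42 bp each, by coordinates, strand and name. The submitters' processing notes name FastQC, Bowtie and mm9. Versions, mismatches and the handling of reads with several possible places: not given in the sources used here. A deposited score is 255 on every regular line and was not used. Lines with broken separators (1 of the 5mC-labelled library, 8 of the other) were left out. Replicates, and so tests across groups, were not available.

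Distinct positions were counted in 50 bp windows after moving read starts 100 bp, and in 1 kb bins called at an adjusted Poisson tail of 0.01 and 4 times the mean of the non-empty bins of the chromosome. Other chromosome means run from the first to the last read. Intervals (95%) are exact Poisson, Clopper-Pearson or, for ratios, conditional on the summed count, and PCR reads are not independent molecules. The steps for borders and bins were tested on simulated data. A 500 bp sum can carry a border outwards, so block edges were also placed from read bodies. All 5 loci, the densest window of each and the position with the most reads are named. The loci and measures were chosen with earlier results of these data known. Python 3.11.15, numpy 2.4.6, scipy 1.17.1, pandas 2.3.3 and matplotlib 3.10.9 were used.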

Additional observations from a re-analysis of the deposited data

How the results depend on the processing

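Of 103 values under other settings, 75 stayed within the interval of the main value (for widths, within 1.5 times), 28 moved and 0 reversed. The fold of the 5mC-labelled library over the flanks was 592 with all reads, 96.5 with 10 kb flanks, 229 with 50 kb flanks and 104 without read-free flank stretches (added later) at chromosome 17. It was 146, 241 and 116 under the last 3 settings at chromosome 10, 23.3, 12.4 and 11.5 at chromosome 9, and 2.58 with 50 kb flanks at chromosome 7. The 50 kb flanks of the chromosome 9 locus hold a 1 kb bin with 100 positions of the 5mC-labelled library. The ratio of the 5mC-labelled library over the H2ABbd-labelled library with all reads was 11.8, 14.7, 18.7, 16.1 and 16.3 at chromosomes 17, 10, 7, 12 and 9 (the last 3 against the floor of 3 counts). The library totals change with this setting, and at chromosome 7 the counts were 148 and 0 both ways. The raised stretch at chromosome 7 held 237 windows, 615 at 3 times the chromosome mean and 102 at 8 times. With the flank mean as reference no window there was raised, and this setting is not counted among the 103 values. At chromosome 12 it held 54 windows and 123 at 3 times. The share of positions in the densest 10% of windows was 23.3% in 100 bp windows and 28.2% with all reads at chromosome 17, 22.1%, 18.8% and 22.3% (25 bp, 100 bp, all reads) at chromosome 10, and 44.6% and 23.0% (25 bp, 100 bp) at chromosome 7. The plus share at chromosome 17 was 47.0% with all reads, and without its top position the chromosome 12 locus had 0.0% repeats. Other causes of these moves were not tested. No paired analysis was possible because each group has 1 library.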

Other observations

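Repeated reads at 1 position were spread over the flow cell. At the chromosome 17 locus 458 of 42973 pairs of reads at the same position and strand in the 5mC-labelled library lay on the same tile. This is 1.07% (exact Clopper-Pearson 95% interval 0.971 to 1.17%), with reads of the locus on all 96 tiles. In the whole library 1.10% of such pairs lay on the same tile. Of its 181901648 pairs, 167495577 came from chr2:98502001-98508000 alone (1.09%), so the value of the whole library mostly describes that stretch. At chromosome 10 the share was 1.40% (0.900 to 2.08%). Pairs at 1 position share reads and are not independent, so both intervals are likely too narrow.

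The reads of the chromosome 17 locus made up 0.126% of all reads of the 5mC-labelled library and 0.0107% of those of the H2ABbd-labelled library. Its densest 1 kb bin ranked 5 among 2299806 bins in the 5mC-labelled library and 71 in the H2ABbd-labelled library, while that of the chromosome 10 locus ranked 53 and 885.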
